A study of Apis mellifera with 18 samples.

Results

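The 100 genes described here are honey bee (Apis mellifera) brain genes with similar levels in control bees aged 1 d and 10 d. Among such genes they had the lowest levels, relative to controls, after 10 d of feeding on dinotefuran. They were taken from 9935 genes with a numeric gene ID. Of these, 9520 carried a LOC symbol other than those starting with LOC406, 7572 of the 9520 had C_10d and C_1d means within 0.5 of each other on the log2 scale, and 6161 of the 7572 also had a mean of at least 1 FPKM (the deposited unit, a fragment count scaled to exon length and to the mapped fragments of the library) in C_10d. The members were chosen by the measured DT_10d minus C_10d, as the 100 of these 6161 eligible genes with the lowest values. For this choice, and for every value below unless another scale is named, the FPKM of each library was divided by the median ratio of its genes to their geometric mean over all libraries (scaled FPKM), and changes are differences of group means of log2(scaled FPKM + 0.1).

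Brains came from bees of 3 colonies that were caged when newly emerged and given 2 mL of sucrose solution (50%). For treated bees (DT) the food contained 0.01 mg/L of dinotefuran, and control bees (C) had plain sucrose. Bees were collected at 1, 5 and 10 d, giving the groups C_1d, DT_1d, C_5d, DT_5d, C_10d and DT_10d with 3 libraries each. Each library pooled 15 brains, so the spread between libraries is a spread between pools and not between bees, and the labels do not say whether pools of a group came from separate cages. In pooled tissue, fewer cells of a type and less RNA per cell cannot be told apart.

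Dinotefuran is a neonicotinoid insecticide, a class of compounds that bind the nicotinic acetylcholine receptors of insects. These receptors carry much of the fast excitatory signalling of the insect brain, including that of the mushroom bodies, which are known for olfactory learning in bees. In the first days after emergence worker bees pass through an age-linked change of behaviour that is accompanied by changes of brain gene expression. The members are known here only by their gene IDs. The annotation used gives them no product names, and no role is assigned to them.

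The libraries differed by a factor shared by most genes. The median ratios ran from 0.539 to 1.81, with C_5d replicate 3 (1.81) and C_1d replicate 1 (1.65) highest. They differed between treated and control libraries. At 10 d they were 1.46 to 1.54 in DT_10d and 1.29, 0.948 and 1.48 in C_10d. At 1 d (0.539 to 0.711 in DT_1d, 0.770 to 1.65 in C_1d) and 5 d (0.550 to 0.826 in DT_5d, 0.954 to 1.81 in C_5d) treated libraries were lower without overlap. In the paper's read summary, the share of reads in introns was highest in its group for C_5d replicate 3, C_1d replicate 1 and C_10d replicate 3. That share was lower in DT_1d than in C_1d and higher in DT_10d than in C_10d, both without overlap, and it overlapped at 5 d. The cause of the differences in median ratio was not tested. Without the scaling the median of all genes tested lay at -0.73 on the log2 scale for DT_5d against C_5d and at 0.29 for DT_10d against C_10d. Among marker lists, the neuronal marker Syt1 was found in every group, and at 10 d it was higher in DT_10d without overlap (26.0 to 28.5 scaled FPKM in C_10d, 31.7 to 38.2 in DT_10d). The 8 hypopharyngeal gland markers, which belong to a head gland next to the brain, summed to 14121 to 37378 scaled FPKM in C_10d and 7805 to 10660.2 in DT_10d, and to 34308 to 83725 in C_5d and 127110.0 to 190967 in DT_5d. At 10 d the sums of 3 cuticle markers (4290.4 to 8607 in C_10d, 2928 to 4203 in DT_10d), 4 photoreceptor opsins (627 to 846, 523 to 625) and 2 glial markers (360.5 to 422, 318 to 336) were also lower in DT_10d without overlap. The sums of 7 muscle markers overlapped at 10 d (509 to 652 in C_10d, 461 to 520 in DT_10d), and 1 of the 7, TpnCI, was called lower there (-1.49, adjusted p = 0.00216, limma). At 5 d the opsin sum (461 to 550 in C_5d, 291 to 411 in DT_5d) and the sum of 3 germ line markers (6.45 to 8.99, 5.38 to 6.04) were lower in DT_5d without overlap. At 1 d Syt1 was lower in DT_1d without overlap (22.3 to 24.96 in C_1d, 19.7 to 21.3 in DT_1d). The glial sum (350 to 376, 389 to 506) and the muscle sum (625 to 1209, 1214 to 1401) were higher in DT_1d without overlap. The Syt1 and glial differences at 1 d were thus opposite in direction to those at 10 d. None of the markers was at 0 in all libraries. The part of RNA from these cells in the members' values was not tested.

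The member with the lowest value, LOC102653839, stood at -2.35 and the 100th, LOC113218779, at -0.74, with a median of -0.91. Because C_1d, C_10d and DT_10d chose the members, all values for these 3 groups are a description and carry no test. Just inside the limit were LOC725811 (-0.75), LOC100576236 (-0.74) and LOC113218779 (-0.74), and just outside were LOC100576996 (-0.74), LOC100578734 (-0.74) and LOC409550 (-0.73). In 66 of the 100 members every DT_10d library lay below every C_10d library, where the share over all 9348 genes tested was 12.7%, and in the other 34 the libraries of the 2 groups overlapped. Over all genes tested, 39 (0.417%) were called lower and 25 (0.267%) higher at 10 d by the threshold explained below (limma), and nothing is read from this for the members. In 33 members the DT_10d libraries lay below all 15 other libraries of the study, against 3.38% of all genes tested. The median member had 2.14 to 2.36 scaled FPKM in the DT_10d libraries and 4.53 to 6.59 in the other 15.

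**Figure D1:**
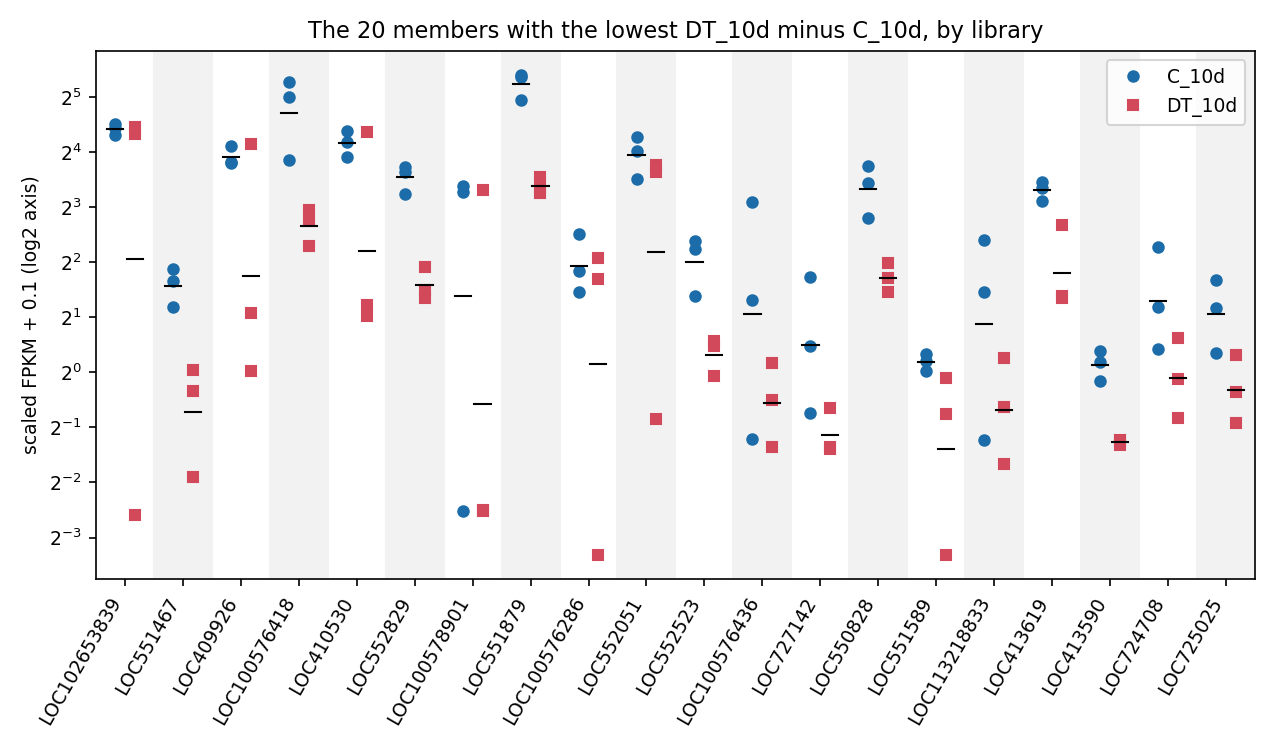
Scaled FPKM + 0.1 on a log2 axis of the 20 members with the lowest DT_10d minus C_10d, from left to right in that order, with 1 point per library (circles C_10d, squares DT_10d, 3 each) and a bar at the group mean of the log2 values. In 10 of the 20 the squares all lie below the circles, and in others, such as LOC102653839, 1 square alone sits far below the rest.

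The members differed in how many libraries carried the low value. In a first kind of member all DT_10d libraries were low. LOC100576418, on linkage group 15 (Amel_HAv3.1, 5306954 to 5309145), had 32.0, 38.8 and 14.4 scaled FPKM in C_10d and 7.61, 6.66 and 4.84 in DT_10d. Its groups did not overlap, and the means were 28.4 ± 12.6 and 6.37 ± 1.40 (SD, n = 3), a 4.13-fold lower level in DT_10d. LOC552829 (linkage group 13, 1224088 to 1227482) had 9.43, 12.4 and 13.2 in C_10d and 3.66, 2.73 and 2.44 in DT_10d, which was 3.89-fold lower. All of its other 15 libraries, from 4.56 to 13.2, lay above these 3.

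LOC551879 (linkage group 7, 10547812 to 10553466) had 30.9, 41.3 and 42.4 scaled FPKM in C_10d and 9.54, 10.0 and 11.6 in DT_10d, a 3.63-fold lower level. In C_1d its mean was 47.5 ± 7.13 and in DT_1d 49.8 ± 4.52 (SD, n = 3), so the treated bees stood at the control level at the first age. LOC552523 (linkage group 5, 9283687 to 9289087) had 2.52, 5.12 and 4.66 in C_10d and 1.38, 1.29 and 0.85 in DT_10d. LOC550828 (linkage group 16, 2579585 to 2591811) had 6.94, 13.4 and 10.8 in C_10d and 3.89, 2.64 and 3.20 in DT_10d. Both had a level about 3-fold lower in DT_10d, 3.22-fold and 3.06-fold, with no overlap. LOC413590 was a member of low level, at 0.79, 1.20 and 1.03 in C_10d and 0.30, 0.32 and 0.32 in DT_10d, and its treated libraries were the closest to each other among these 6. LOC413619 had 10.9, 10.1 and 8.54 in C_10d and 6.29, 2.44 and 2.52 in DT_10d. LOC725025 had 3.09, 2.15 and 1.18 in C_10d and 1.14, 0.43 and 0.68 in DT_10d, and its highest treated library lay just under its lowest control. 

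In a second kind 1 library, or a few of them, lay far under the rest. Of the members 11, counted after their values were seen, had at least 1 library under 10% of their median over all 18 libraries, 26 library values in all, and 7 of these 11 members were among the 20 lowest. How many of all genes tested had such a library was not counted, so the 11 are not read as a trait of the members. LOC102653839 (linkage group 8, 7827526 to 7828281) had 22.8, 19.8 and 21.5 scaled FPKM in C_10d and 20.1, 21.8 and 0.07 in DT_10d, so 1 treated library gave the whole difference. It was also at 0.17 in DT_1d replicate 1, at 0.10 and 0.04 in C_5d replicates 2 and 3 and at 0.12 in DT_5d replicate 3. Without DT_10d replicate 3 its difference was -0.03. LOC100578901 showed the same 2 levels, with 0.07, 10.3 and 9.63 in C_10d and 0.07, 9.91 and 0.08 in DT_10d. LOC410530 stayed just outside the 10% limit, with 15.1, 18.2 and 20.8 in C_10d and 2.24, 20.5 and 1.92 in DT_10d, and its middle treated library lay at the control level.

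LOC409926 had 17.2, 14.1 and 13.8 scaled FPKM in C_10d and 17.6, 2.01 and 0.92 in DT_10d, and was at 0.77 in C_5d replicate 3. LOC552051 had 16.2, 19.4 and 11.3 in C_10d and 12.3, 0.46 and 13.5 in DT_10d. LOC100576286 had 5.65, 3.48 and 2.65 in C_10d and 3.16, 4.13 and 0.00 in DT_10d. In each of these 3 at least 1 treated library lay at or above the lowest control. LOC551467 had 2.17, 3.58 and 3.07 in C_10d and 0.17, 0.70 and 0.93 in DT_10d, and LOC551589 had 1.05, 1.16 and 0.92 in C_10d and 0.50, 0.00 and 0.83 in DT_10d. Only these 2 of the 7 did not overlap at 10 d, and of the 11 members 3 did not. The other 4 of the 11 were LOC409590, LOC552367, LOC113218829 and LOC726409.

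**Figure D2:**
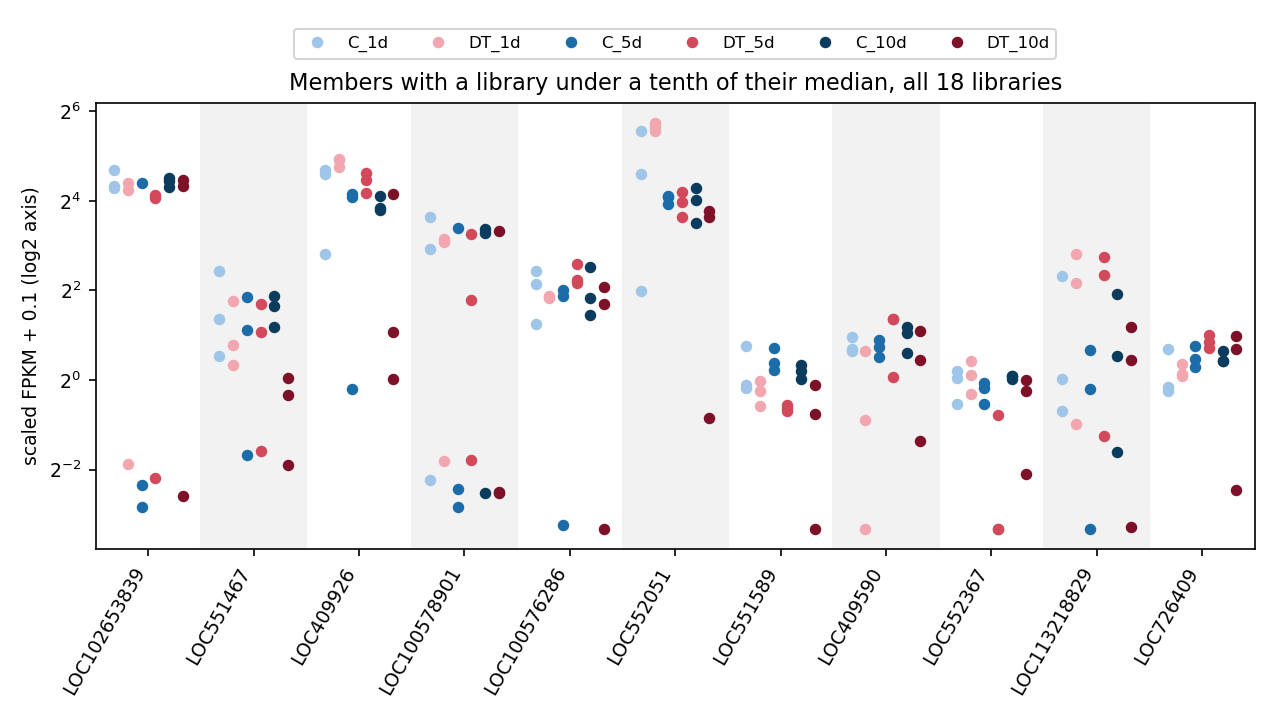
Scaled FPKM + 0.1 on a log2 axis of the 11 members with at least 1 library under 10% of their median, with 1 point per library and 1 colour per group (3 libraries each). LOC102653839 and LOC100578901 fall into a high and a low level with libraries of treated and control groups in both and 1 library of LOC100578901 (3.37) between, and most other members show 1 to 3 isolated low points.

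In another kind the control libraries themselves differed. In 18 members, counted after their values were seen, the highest C_10d library was over 3 times the lowest, and 1 of these 18 did not overlap at 10 d. LOC100576436 had 2.40, 8.46 and 0.33 scaled FPKM in C_10d, a 25.4-fold range, and 0.29, 0.61 and 1.02 in DT_10d. LOC113218833 had 5.18, 2.67 and 0.32 in C_10d and 0.22, 0.55 and 1.10 in DT_10d. In both, the lowest control lay inside the range of the treated libraries. LOC727142 had 3.24, 1.29 and 0.50 in C_10d and 0.29, 0.28 and 0.54 in DT_10d, and LOC724708 had 4.76, 2.17 and 1.25 in C_10d and 0.46, 0.82 and 1.45 in DT_10d. C_10d replicate 3 was the lowest control in 15 of the 18 and C_10d replicate 1 the highest in 12. At the other ages C_1d replicate 1 was highest of its group in 11 of the 18 and C_5d replicate 3 in 11. These counts were not made over all genes tested, so they are not read as traits of the members.

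Leaving out each library that chose the members gave lists that shared 45 (without C_10d replicate 3) to 84 (without DT_10d replicate 1) of the 100 genes. In each of these 9 lists were 15 of the genes, and 14 of them did not overlap at 10 d. Apart from LOC410530, LOC552829, LOC551879, LOC552523, LOC550828, LOC413619 and LOC411633, they were LOC724560, LOC726935, LOC551101, LOC100576307, LOC551806, LOC113218569, LOC107964653 and LOC552836, named after their values were seen. LOC551806 (linkage group 8, 6898500 to 6932703) is an example, with 25.2, 28.8 and 24.5 scaled FPKM in C_10d and 14.4, 13.4 and 10.3 in DT_10d, while its other 12 libraries ran from 22.3 to 36.6. In 80 of the 100 members the difference stayed below -0.50 whichever of the 6 libraries of the 10 d groups was left out. The same libraries chose the members, so this count is a description and carries no test.

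Whether the members were already lower after 5 d was asked with DT_5d against C_5d, groups that took no part in their choice. The median member changed by -0.14, with 56 of 100 below 0, near the share of all genes, where 50.3% of all genes tested were below 0. On both sides, 25 members lay below -0.5 and 20 above 0.5, against 9.61% and 10.6% of all genes tested. In 27 members every DT_5d library lay below every C_5d library (12.4% of all genes tested) and in 5 every DT_5d library lay above (12.8%). Of the 66 members that did not overlap at 10 d, 23 were below at 5 d without overlap and 1 above. Of the 34 that overlapped at 10 d, 4 were below and 4 above. The median 5 d change was -0.34 in the 66 and 0.55 in the 34. In the 34 the median change from C_1d to C_5d was -0.355, and that from DT_1d to DT_5d was 0.05. In the 66 these were -0.002 and -0.51. The 0.55 thus stood beside lower C_5d values, with DT_5d near DT_1d. C_1d took part in the choice of the members.

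These counts of libraries that do not overlap depended on the scaling. On the deposited FPKM with no scaling, 55 members had all DT_5d libraries below C_5d, against 54.7% of all genes tested, and no member lay above (1.18% of all genes). With quantile normalization the counts were 27 (13.2%) and 6 (12.9%). Without C_5d replicate 3, the library with the largest median ratio, they were 36 (16.8%) and 17 (18%). A group of fewer libraries overlaps less often whatever the scaling, so the counts without this library are no measure of it.

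**Figure D3:**
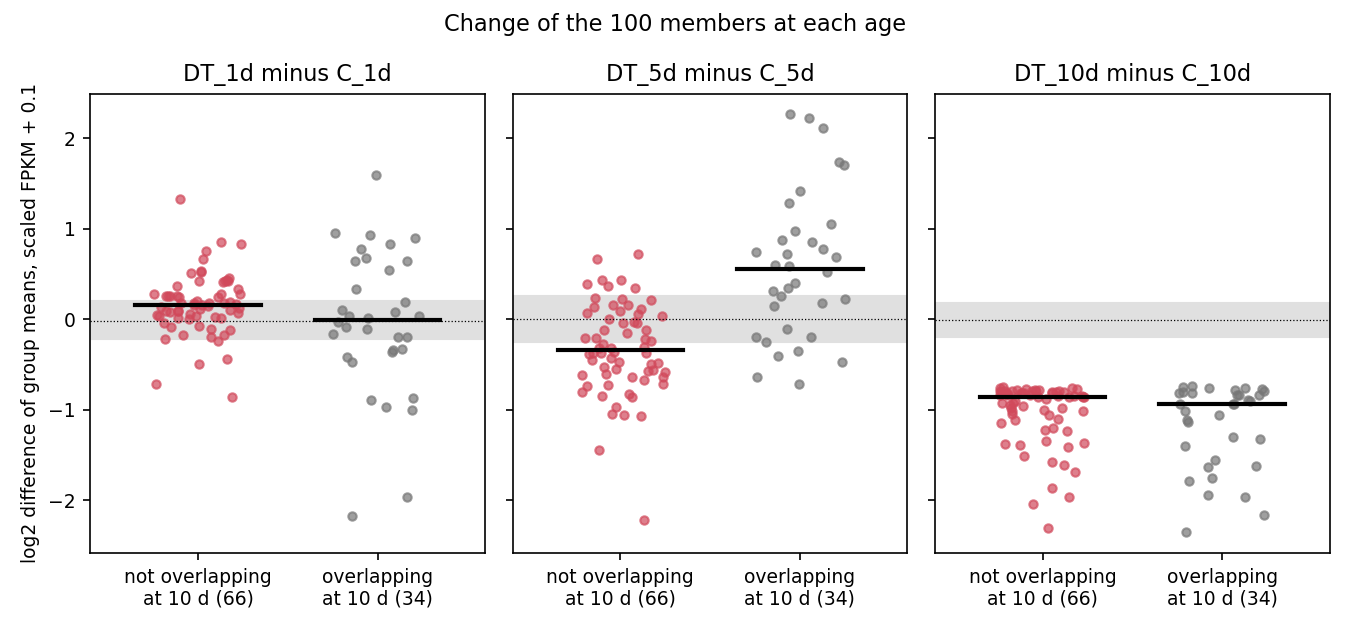
Difference of group means of log2(scaled FPKM + 0.1) between DT and C at 1, 5 and 10 d (panels), with 1 point per member, split into the 66 members whose 10 d libraries did not overlap (red) and the 34 whose libraries did (grey). Black bars are medians, and the grey band and dotted line are the quartiles and the median of all 9348 genes tested. At 5 d the medians are -0.34 and 0.55, and at 10 d all points lie at or below -0.74, as the choice of the members requires.

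At 5 d 2 members passed the threshold, an adjusted p under 0.05 (limma, Benjamini-Hochberg over 9348 genes) and a log2 change beyond 1, and both fell. Over all genes tested 17 were called lower (0.182%) and 38 higher (0.407%, no member). With no scaling the calls were 1455 lower and 16 higher, and 36 members were among the lower ones. LOC409057 (linkage group 10, 4884432 to 4892750) had 30.7, 30.4 and 23.5 scaled FPKM in C_5d and 15.3, 12.9 and 11.8 in DT_5d. The groups were well apart, with means of 28.2 ± 4.07 and 13.3 ± 1.76 (SD, n = 3). It fell by 1.07 on the log2 scale (SE 0.198, adjusted p = 0.0186, limma). At 1 d its means were 26.4 ± 7.02 in C_1d and 29.8 ± 1.33 in DT_1d, and at 10 d they were 22.8 ± 5.30 in C_10d and 11.1 ± 0.980 in DT_10d, so the level of the treated bees at 5 d was close to that at 10 d. The call was lost without C_5d replicate 1 (adjusted p = 0.0737), without DT_5d replicate 2 (0.0854) and without DT_5d replicate 3 (log2 change -0.99, adjusted p = 0.0471, all limma).

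LOC408961 (linkage group 8, 5142758 to 5179126) had 58.6, 49.4 and 72.2 scaled FPKM in C_5d and 27.5, 36.7 and 23.5 in DT_5d. Each treated library lay below each control. It fell by 1.04 on the log2 scale (SE 0.238, adjusted p = 0.0423, limma), from 60.1 ± 11.4 to 29.2 ± 6.79 (SD, n = 3). At 10 d its means were 56.0 ± 14.5 and 31.4 ± 2.12. The call held without C_5d replicate 2 and was lost without each of the other 5 libraries of the 5 d groups, with adjusted p of 0.106 (C_5d replicate 1), 0.183 (C_5d replicate 3), 0.142 (DT_5d replicate 1), 0.0825 (DT_5d replicate 2) and 0.0753 (DT_5d replicate 3) by limma. With the 6 libraries of the 5 d groups alone in the fit, neither gene was called, with adjusted p of 0.0664 for LOC409057 and 0.0896 for LOC408961 (limma).

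At 5 d an unadjusted p under 0.05 (limma) was found in 25 of the 100 members and in 21.7% of all genes tested, which is near the same share. Regardless of the size of the change, 5 members had an adjusted p under 0.05 at 5 d, each lower in DT_5d, against 61 genes lower (0.653%) and 76 higher (0.813%) among all genes tested. The other 3 were LOC411387, LOC411633 and LOC412150, named after their values were seen. LOC411387 (linkage group 6, 13121140 to 13139358) had 4.46, 3.87 and 4.77 scaled FPKM in C_5d and 2.13, 2.12 and 2.28 in DT_5d, a log2 change of -0.97 (SE 0.226, adjusted p = 0.0451, limma). LOC412150 (linkage group 8, 7719813 to 7722969) had 38.2, 49.9 and 40.4 in C_5d and 22.7, 20.4 and 27.9 in DT_5d, a change of -0.86 (SE 0.190, adjusted p = 0.0412, limma). LOC411633 (linkage group 4, 12830142 to 12833130) had 24.8, 25.3 and 23.4 in C_5d and 15.2, 19.4 and 15.6 in DT_5d, a change of -0.55 (SE 0.127, adjusted p = 0.0427, limma). In each of these 3 the groups did not overlap at 5 d or at 10 d. The adjusted p of LOC411633 was above 0.05 without each of the 6 libraries in turn (0.0502 to 0.152), that of LOC411387 stayed under it only without C_5d replicate 2 and that of LOC412150 only without DT_5d replicate 3, and with the 5 d groups alone in the fit none of the 3 was under it (0.0700 to 0.128, all limma). LOC411633 is the most graded of them, with treated means of 28.3 ± 2.61, 16.8 ± 2.34 and 10.7 ± 0.873 at 1, 5 and 10 d beside control means of 25.8 ± 1.88, 24.5 ± 0.967 and 21.3 ± 2.90 (SD, n = 3).

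**Figure D4:**
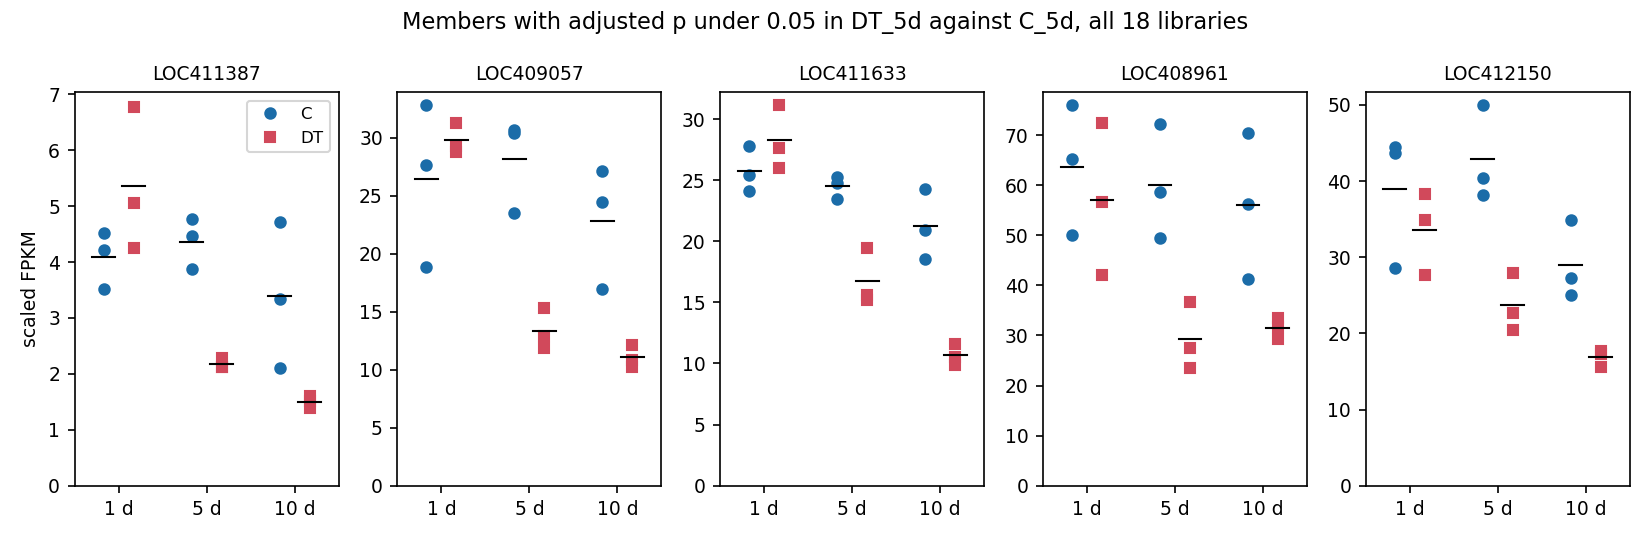
Scaled FPKM, on axes that start at 0, of the 5 members with an adjusted p under 0.05 in DT_5d against C_5d, at 1, 5 and 10 d, with 1 point per library (circles C, squares DT, 3 each) and a bar at each mean. At 5 d and 10 d the squares lie below the circles in each panel, while at 1 d they overlap, as for LOC409057 with means of 26.4 and 29.8.

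Among the 20 lowest members at 10 d the 5 d change ran from -1.06 (LOC551589) to 2.27 (LOC102653839), with 10 of 20 below 0. LOC551589 had 1.20, 1.06 and 1.55 scaled FPKM in C_5d and 0.58, 0.52 and 0.55 in DT_5d, with no overlap. LOC409926 and LOC100576286 had the opposite order, at 1.74 and 2.12, and in both 1 control library lay far under the others (0.77 and 0.01). LOC107965192 was above at 5 d without overlap and below at 10 d without overlap, with 5.62, 5.64 and 5.29 in C_5d and 5.90, 7.36 and 6.31 in DT_5d.

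The change with age within treated bees was compared as DT_5d against DT_1d, 2 groups that also took no part in the choice. The median member changed by -0.35, with 70 of 100 below 0, against 50.7% of all genes tested. In this comparison 12 members fell and 1 rose past the threshold (limma), where 243 of all genes tested were called lower (2.6%) and 174 higher (1.86%). With no scaling 3 members were called lower among 107 genes and none of 53 higher. In 37 members all DT_5d libraries lay below all DT_1d libraries (20.8% of all genes tested) and in 5 above (16.1%). In controls, 3 members had all C_5d libraries below all C_1d libraries (7.74%) and 7 above (8.58%), and the median change of C_5d from C_1d was -0.10. From DT_1d to DT_5d the muscle marker sum was lower without overlap (1214 to 1401, 767 to 1093). Control muscle sums overlapped (625 to 1209 in C_1d, 632 to 903 in C_5d), and those of C_1d lay below DT_1d. Syt1 was higher in DT_5d than in DT_1d without overlap (19.7 to 21.3, 22.0 to 27.9). It was also higher in C_5d than in C_1d without overlap (22.3 to 24.96, 26.1 to 35.3). The part of these markers in the members' values was not tested. The members' stability in controls between 1 d and 10 d was required by their choice, and whether the change of treated bees from 1 d to 5 d differed from that of controls was tested only as the interaction given below.

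LOC552367 fell by 2.55 on the log2 scale (SE 0.583, adjusted p = 0.0137, limma), from 0.98, 0.71 and 1.24 scaled FPKM in DT_1d to 0.48, 0.00 and 0.00 in DT_5d. With 2 treated libraries at 0, the size of this change depends on the pseudocount, and it was -4.71 with 0.01 and -0.78, not called, with 1. The call was lost without DT_1d replicate 3, DT_5d replicate 2 or DT_5d replicate 3 (adjusted p up to 0.0651, limma). LOC413590 had 2.60, 2.22 and 2.06 in DT_1d and 0.81, 0.74 and 0.48 in DT_5d, a fall of 1.64 (SE 0.270, adjusted p = 0.00249, limma). LOC102653800 (linkage group 1, 23454512 to 23462297) had 6.07, 7.56 and 6.53 in DT_1d and 2.29, 2.87 and 1.79 in DT_5d, a fall of 1.52 (SE 0.203, adjusted p = 0.000842, limma). In the last gene C_5d, at 2.86, 3.35 and 2.73, was also below C_1d, at 3.84, 5.10 and 6.23. LOC413590 and LOC102653800 were called with each of the 6 libraries left out in turn.

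LOC413128 fell by 1.16 (SE 0.195, adjusted p = 0.00283), LOC411387 by 1.24 (SE 0.226, adjusted p = 0.00437) and LOC409057 by 1.16 (SE 0.198, adjusted p = 0.00318, all limma), and these 3 too were called with each library left out. The other 6 calls of lower level were LOC725309 (-1.46), LOC411021 (-1.27), LOC551223 (-1.26), LOC100577149 (-1.16), LOC551953 (-1.07) and LOC725128 (-1.06). LOC551223 had 124, 112 and 99.9 scaled FPKM in DT_1d and 51.1, 40.7 and 48.1 in DT_5d, and its C_5d libraries, at 33.5, 50.0 and 38.5, overlapped with DT_5d. Each of these 6 was lost without at least 1 library, LOC725128 without DT_1d replicate 2 or DT_5d replicate 3 and LOC100577149 without each of the 6 in turn. LOC725309 held only without DT_5d replicate 1. LOC411021 was lost without DT_1d replicate 2 or 3 or DT_5d replicate 2 or 3, as was LOC551953 without DT_1d replicate 1 or 2 or DT_5d replicate 1 or 2, and LOC551223 without DT_1d replicate 1 or 2 or DT_5d replicate 2 or 3. The adjusted p over these alternatives ran up to 0.168 (limma).

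LOC412829 (linkage group 1, 6494980 to 6504439) was the 1 member that rose, from 1.02, 2.06 and 1.69 scaled FPKM in DT_1d to 5.43, 3.46 and 4.85 in DT_5d, by 1.5 on the log2 scale (SE 0.365, adjusted p = 0.0186, limma). Controls had 2.11, 1.82 and 1.91 in C_1d and 4.45, 3.52 and 4.21 in C_5d. The call was lost without DT_1d replicate 1, DT_5d replicate 1 or DT_5d replicate 3, with adjusted p up to 0.0854 (limma). At 10 d its libraries had 0.77, 3.38 and 1.81 in C_10d and 0.70, 0.86 and 0.98 in DT_10d.

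**Figure D5:**
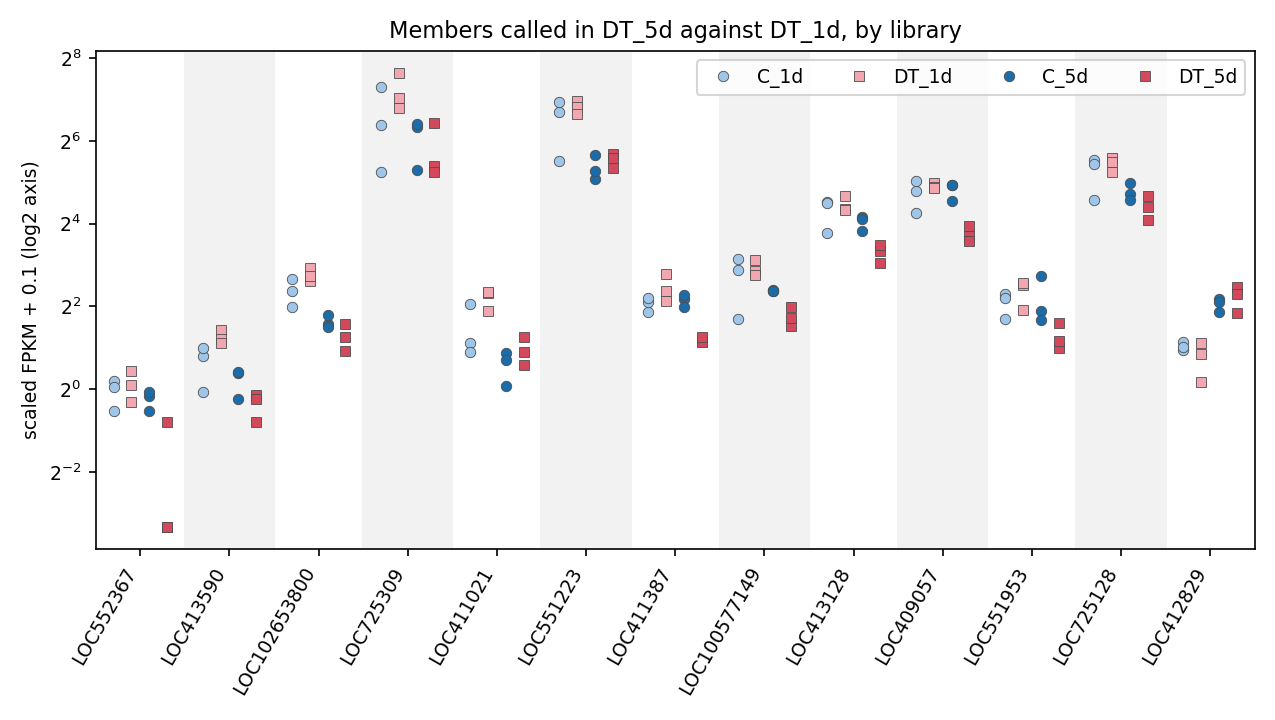
Scaled FPKM + 0.1 on a log2 axis of the 13 members called in DT_5d against DT_1d, ordered by the change at a pseudocount of 0.1, from LOC552367 (-2.55) to the 1 rise (LOC412829, 1.5), with 1 point per library (circles controls, squares treated, light 1 d, dark 5 d). For LOC409057 and LOC411387 the dark squares lie apart from all other groups, and for LOC551223 and LOC412829 the controls of 5 d lie with them.

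At 1 d no member and no other gene of the 9348 tested passed the threshold for DT_1d against C_1d (0%, limma), while 1039 genes (11.1%), 8 of the 100 members among them, had an unadjusted p under 0.05. C_1d took part in the choice of the members, so this comparison is not independent of it. The median member stood at 0.11 and 31 of 100 were below 0, against 52% of all genes. All DT_1d libraries lay above all C_1d libraries in 10 members (8.26% of all genes tested) and below in 2 (9.52%). With no scaling 28 members were below (46.9% of all genes) and none above. LOC413590 was among the 10, with 2.60, 2.22 and 2.06 scaled FPKM in DT_1d and 0.86, 1.65 and 1.91 in C_1d, a log2 change of 0.67 (SE 0.270, adjusted p = 0.438, limma).

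The difference between the 5 d and 1 d effects was tested as an interaction, which also shares C_1d with the choice. The median member stood at -0.29, with 63 of 100 below 0, against -0.02 and 52.9% for all genes tested. No gene passed the threshold (0%, limma), while 756 genes (8.09%), 23 of the 100 members among them, had an unadjusted p under 0.05. LOC409057 had the smallest p among the members, at -1.28 (SE 0.280, adjusted p = 0.219, limma).

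The members were a little shorter than the genes they were taken from, as a description. Their median gene length was 2976 bases (607 to 99904), and that of the eligible genes was 4272. One RefSeq transcript was listed for 54 of the 100 and for 45.5% of the eligible genes, and 34 transcripts at most. In C_10d they ranged from 1.07 to 351 FPKM as deposited, with a median of 6.42, against 8.08 in the eligible genes. They lay on each of the 16 linkage groups, with 13 on group 8, 11 on group 10 and 10 on group 5, which held 7.58%, 6.2% and 7.87% of the eligible genes, and 1 has no linkage group in the table used.

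Within 100 kb of each other lay 12 pairs of members, and 6 pairs had no protein-coding gene between them. How often other eligible genes lie so close was not counted, so the pairs are a description and are not read as clustering. Closest were LOC413083 and LOC551845 on linkage group 13 (10556643 to 10560215 and 10560537 to 10583286), 321 bases apart. LOC413083 had 133, 198 and 159 scaled FPKM in C_10d and 102, 88.9 and 89.3 in DT_10d, and LOC551845 had 1.97, 2.94 and 2.33 in C_10d and 1.18, 1.14 and 1.58 in DT_10d. They were 1.73-fold and 1.79-fold lower in DT_10d without overlap. At 5 d the libraries of both overlapped, with changes of 0.11 for LOC413083 and 0.09 for LOC551845. LOC551467 and LOC107965192 on linkage group 11 (15003330 to 15005477 and 15005807 to 15007568) were 329 bases apart. LOC107965192 had 4.36, 7.86 and 4.17 in C_10d and 3.74, 3.51 and 1.87 in DT_10d.

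LOC725202 and LOC725380 on linkage group 15 were 1.74 kb apart, with C_10d means of 0.942 and 293 scaled FPKM. LOC725380 had 280, 365 and 233 in C_10d and 237, 146 and 83.9 in DT_10d, with overlap. LOC725202 had 2.08, 2.1 and 1.38 in C_5d and 0.98, 1.26 and 1.00 in DT_5d, without overlap, and LOC725380 had a 5 d change of 0.97 with overlap. LOC411633 and LOC725125 on linkage group 4 were 2.49 kb apart, and both lay below controls without overlap at 5 d and at 10 d. LOC725125 had 0.91, 0.91 and 1.15 in C_5d and 0.85, 0.45 and 0.82 in DT_5d. The other named pairs were LOC724721 with LOC412829 on linkage group 1 (3.25 kb), LOC725025 with LOC113218570 on group 9 (7.73 kb), LOC725128 with LOC725363 on group 5 (20.8 kb) and LOC551589 with LOC412305 on group 10 (31.9 kb).

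Under 8 of the members 14 lncRNA transcripts were listed, and 6 of the 14 did not reach 1 scaled FPKM in any library. LOC726935 had 5 of them. Its transcript TCONS_00085197 had means of 8.23 ± 1.29 in C_10d and 2.97 ± 0.721 in DT_10d (SD, n = 3), while TCONS_00083944 had 0.358 ± 0.223 and 1.21 ± 0.411, the opposite order. The gene itself had 24.0, 38.3 and 37.6 in C_10d and 12.6, 12.1 and 17.3 in DT_10d. Under LOC552592, TCONS_00076375 had 13.9 ± 10.5 in C_10d and 1.91 ± 0.551 in DT_10d. LOC726935 and LOC552592 were named after their values were seen, and the strand setting of the counting is not given in the sources used here, so reads of these transcripts and of the genes cannot be told apart.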

How the data were processed

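FPKM values of 18 libraries were used, 1 deposited file per library. Per the study's methods, the authors aligned reads to Amel_HAv3.1 with Hisat2, assembled them with StringTie (also named in the submitters' processing notes), merged them with Cuffmerge and computed FPKM with Cuffdiff. Deposited rows of a gene share 1 FPKM, so 24414 rows gave 9935 genes. Low FPKM did not fall on whole-read steps (at most 2.68% of values in 153 pairs of libraries). The number of reads behind a single value could therefore not be read back from it, although the paper lists the total reads of each library. A value of 0 is reported as listed. All 9935 gene IDs were found in the RefSeq table of Amel_HAv3.1, which gives positions and no product names, so the gene classes intended by product name were not applied and only markers with a symbol were used. Groups came from the sample labels.

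Genes that reached 0.1 FPKM in 3 or more libraries (9348, all 100 members among them) were tested with limma 3.58.1 (R 4.3.3; lmFit on 6 group means, eBayes with trend) on log2(scaled FPKM + 0.1), the pseudocount understating changes of low genes. Calls needed a Benjamini-Hochberg adjusted p under 0.05 and a log2 change beyond 1. The fit was first tested on simulated data. Summaries used Python 3.11.15, numpy 2.4.6 and pandas 2.3.3, and figures matplotlib 3.10.9. Alternatives were no scaling, quantile normalization, pseudocounts of 1 and 0.01, other filters, the compared groups alone, no trend, a replicate block and each library left out. Named were the 20 lowest members, members past the threshold, those beside the limit of 100 and neighbours within 100 kb (8 of 12 pairs, all of 2 members, by the smallest gap). Others are said to be named after their values were seen. The members and lists were chosen with earlier results of these data known. The lncRNA values of DT_1d replicate 1 equal those of DT_10d replicate 1 (5002 of 5006 above 0) and were left out.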

Additional observations from a re-analysis of the deposited data

Results flagged for a closer look

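In 8 members all treated libraries lay on one side of the controls at one age and on the other side at another age. Over all 9348 genes tested 483 (5.17%) did so, beside these 8 of 100. The direction at 10 d was fixed by the choice of the members, and the differences from 10 d were therefore not tested. LOC100576418 stood at 0.33 on the log2 scale at 1 d and at -2.05 at 10 d, LOC550828 at 0.51 and -1.61, LOC413590 at 0.67 and -1.41, LOC100576330 at 0.41 and -0.86, and LOC107965192 at 0.75 and -0.82. LOC107965192 was also above controls at 5 d, at 0.23. LOC409740 stood at 0.54 at 1 d, -0.80 at 5 d and -1.37 at 10 d, and LOC409361 at 0.52, -0.49 and -0.85. LOC725202 stood at 0.90 at 1 d and -0.71 at 5 d. For the last 3 the 5 d and 1 d effects differed by -1.34 (LOC409740, SE 0.366, adjusted p = 0.304), -1.01 (LOC409361, SE 0.233, adjusted p = 0.219) and -1.61 (LOC725202, SE 0.597, adjusted p = 0.530) in limma's interaction test, which misses the threshold. LOC409740, LOC409361 and LOC100576330 are named here after their values were seen.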

How the results depend on the processing

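The number of reads behind each gene's FPKM is not known and each group has 3 libraries, so low genes carry the least support. DT_5d against C_5d called 55 genes in all, 2 members lower, with a members' median of -0.14. With no scaling these became 1471, 36 and -0.88, with a pseudocount of 1 the genes called were 34, with the compared groups alone 9 (members 0), and with lncRNA rows added after seeing the data 86. Leaving out 1 library gave 6 (DT_5d replicate 2) to 164 (C_5d replicate 2) genes, 0 to 4 members and medians of -0.171 to -0.0433. DT_1d against C_1d called 0 genes, 8 with the lncRNA rows and 0 to 1 leaving out 1 library, with a members' median of 0.11, or -0.57 with no scaling. DT_5d against DT_1d called 417 genes and 12 members lower. With no scaling there were 160 genes, 3 members and a median of -0.17 in place of -0.35, with a pseudocount of 1 there were 236 genes and 5 members, with quantile normalization 7 members, and leaving out 1 library gave 248 to 337 genes and 7 to 12 members. The interaction called 0 genes, 1 with quantile normalization, 1 with a pseudocount of 1 and 0 to 13 leaving out 1 library. DT_10d against C_10d called 64 genes, 24 with no scaling, 38 with a pseudocount of 1 and 21 to 62 leaving out 1 library. Of the 100 members, 62 were kept with a control window of 0.25, 53 with one of 1, 54 with a C_10d mean of at least 5, 66 with groups that do not overlap and 45 to 84 leaving out 1 library. The cause was not tested. Among single members past an adjusted p of 0.05, 36 of 80 values at 5 d and 98 of 334 values for DT_5d against DT_1d no longer met the threshold. No alternative reversed a direction, which carries little weight because the main fit picked these members and many alternatives leave the log2 change as it was.

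Deviations from the group mean in libraries of the same age and replicate number had r from -0.137 to 0.255 over 9 pairs, 2 of them over 0.1. Over the 18 pairs with different numbers r ran from -0.293 to 0.252, with 3 over 0.1. At 5 d the same-number pairs had r of 0.154, -0.031 and 0.255, so a shared deviation at that age is not excluded. With control and treated libraries of the same age and number as a block, the 5 d comparison called 1 member lower (LOC408961 had an adjusted p of 0.0615, limma). In that fit 2 in place of 5 members had an adjusted p under 0.05 at 5 d. With the replicate number as a block, DT_5d against DT_1d called 11 members lower.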
